A study of Mus musculus with 3 samples.

Results

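The 10 CC chemokine genes Ccl2, Ccl3, Ccl4, Ccl6, Ccl7, Ccl8, Ccl9, Ccl11, Ccl12 and Ccl24 were followed through single-cell RNA libraries of the mouse heart. They were taken by name from the 17126 genes of the deposited tables, which list 17 genes whose symbols begin with Ccl, and each of the 10 was listed in all 3 libraries. The libraries hold cardiac interstitial cells, freed by digestion with collagenase II, cleared of cardiomyocytes and debris in a slow spin, and sorted on surface Lin28, an RNA-binding protein stained here on the cell surface, and on the receptor cKit. One library came from Lin28+/cKit+ cells (1176 cells), 1 from Lin28+/cKit- cells (681 cells) and 1 from Lin28-/cKit- cells (3976 cells). Each group was therefore a single library, no genotype, age, sex or number of animals was given in the sources used here, and no difference between groups has a replicate check.

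CC chemokines are small secreted proteins with a pair of neighbouring cysteines near their amino end, and they steer leukocytes through G protein-coupled receptors. In the heart, resident macrophages and fibroblasts are both known sources, and the ligands are known for calling in monocytes, eosinophils and lymphocytes after injury. By their roles the 10 genes form 4 groups. Ccl2, Ccl7 and Ccl12 are monocyte chemoattractants that act through Ccr2, and Ccl8, their close relative, acts in the mouse through Ccr8. Ccl11 and Ccl24 are eotaxins, which act through Ccr3. Ccl3 and Ccl4 are macrophage inflammatory proteins. Ccl6 and Ccl9 are ligands of Ccr1 found in rodents.

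The coding sequences show what makes the genes 1 family and how far a short 3′ read can tell them apart, so the stretch around the cysteine codons was read from the GENCODE annotation of mm10. Each window runs from 24 bases before to 24 bases after the pair of cysteine codons, which are in capitals, and all windows lie in coding exons. Ccl24 holds a second such pair further upstream, and its downstream pair is the one printed.
Ccl2: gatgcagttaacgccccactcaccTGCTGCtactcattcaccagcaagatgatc
Ccl7: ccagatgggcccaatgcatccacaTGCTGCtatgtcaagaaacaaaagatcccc
Ccl12: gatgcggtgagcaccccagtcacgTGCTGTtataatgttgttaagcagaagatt
Ccl8: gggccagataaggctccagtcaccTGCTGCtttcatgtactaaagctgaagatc
Ccl11: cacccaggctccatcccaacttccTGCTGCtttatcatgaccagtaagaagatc
Ccl24: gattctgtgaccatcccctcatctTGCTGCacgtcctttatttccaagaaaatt
Ccl3: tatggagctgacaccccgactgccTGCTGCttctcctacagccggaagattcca
Ccl4: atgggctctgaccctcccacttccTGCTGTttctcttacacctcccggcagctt
Ccl6: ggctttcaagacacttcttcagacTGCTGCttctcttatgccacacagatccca
Ccl9: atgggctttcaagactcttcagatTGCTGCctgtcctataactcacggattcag

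The codons are TGCTGC in the printed windows of 8 genes and TGCTGT in those of Ccl12 and Ccl4. Over whole coding sequences the most alike pairs were Ccl8 and Ccl12 at 70.5% identity, Ccl6 and Ccl9 at 69.3%, Ccl7 and Ccl12 at 68.1%, Ccl2 and Ccl12 at 67.6% and Ccl3 and Ccl4 at 67.0%. The longest run of bases shared by the annotated transcripts of any 2 of the 10 genes was 25 bases, between Ccl6 and Ccl9. No stretch of 50 bases in the transcripts of 9 of the genes occurred in another annotated gene, and for Ccl9 59 of 2957 such stretches did.

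Of the 10 genes, 9 lie on chromosome 11 in a pair of clusters 1456.1 kb apart. The first holds Ccl2 (chr11:82035571-82037453), Ccl7 (chr11:82045712-82047525), Ccl11 (chr11:82057823-82062955), Ccl12 (chr11:82101845-82103400) and Ccl8 (chr11:82115185-82116799), all on the plus strand. The second holds Ccl9 (chr11:83572919-83578636), Ccl6 (chr11:83587882-83593087) and Ccl3 (chr11:83647844-83649355) on the minus strand and Ccl4 (chr11:83662584-83664683) on the plus strand. Ccl24 lies apart on the minus strand at chr5:135569937-135573049. The levels below split the 2 clusters of chromosome 11 in part: macrophages held all 4 genes of the second and Ccl12 of the first, while Ccl2, Ccl7 and Ccl8 had levels in macrophages and fibroblasts, and Ccl11 in fibroblasts.

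Levels are given as CPM (counts per 1000000 UMIs), that is, transcript molecules of the gene counted through unique molecular identifiers (UMIs), scaled to the total counted in the same cells. The method tags each transcript once at its 3′ end, so levels of different genes do not scale with transcript length. Intervals in brackets are exact 95% intervals that cover the counting of UMIs only, not the spread between animals or between cells. A gene is called higher or lower where the ratio of 2 groups reaches 2-fold and the pair holds at least 20 UMIs. The Lin28+/cKit+, Lin28+/cKit- and Lin28-/cKit- libraries held 10400648, 7401174 and 34031955 UMIs, at medians of 8068.5, 9628 and 8630 UMIs per cell. Of the cell barcodes, 8 occurred in both the Lin28+/cKit+ and the Lin28-/cKit- library and 1 in both Lin28+ libraries. Those cells held 509 to 891 UMIs, and leaving them out changed none of the counts of genes past 2-fold.

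Cells were grouped into classes by fixed marker genes after clustering that left out every chemokine gene and Kit, so the levels of the 10 genes did not help to form a class. Macrophage-like cells made up 50.7% of the Lin28+/cKit+ library (596 cells), 39.4% of the Lin28+/cKit- library (268 cells) and 0.352% of the Lin28-/cKit- library (14 cells). Fibroblast-like cells made up 0.850% (10 cells), 5.87% (40 cells) and 69.6% (2768 cells) of the same libraries. Endothelial-like cells numbered 429, 243 and 928. Each of these classes had all 10 of its 10 markers raised in every cluster it contains. Clusters with markers of several classes or with few UMIs stayed unnamed, with 126, 105 and 218 cells.

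Over all cells, the libraries differed most in the macrophage inflammatory proteins, the Ccr1 ligands, Ccl12 and Ccl24, which were high in both Lin28+ libraries, and in Ccl11, which was high in the Lin28-/cKit- library. Ccl4 had the highest level of the 10 genes in both Lin28+ libraries, at 4886 (4843 to 4928) CPM in Lin28+/cKit+ cells and 2786 (2748 to 2824) in Lin28+/cKit- cells, against 29.0 (27.2 to 30.8) in Lin28-/cKit- cells. Ccl2, the chief monocyte chemoattractant, stood at 816, 849 and 264 CPM in the same order of libraries. Ccl12 stood at 296, 201 and 0.411, and Ccl24, the eotaxin of macrophages, at 199, 200 and 0.558.
The 10 genes together took 8230 CPM in Lin28+/cKit+ cells, 5695 in Lin28+/cKit- cells and 672 in Lin28-/cKit- cells. Ccl6 stood at 249, 297 and 2.53 CPM and Ccl9 at 248, 233 and 2.09. Ccl7 and Ccl8 were level by comparison, with 139, 153 and 178 CPM for Ccl7 and 12.9, 19.7 and 14.0 for Ccl8. Ccl11, which recruits eosinophils, ran the other way, at 2.69 in Lin28+/cKit+ cells, 11.3 in Lin28+/cKit- cells and 172 in Lin28-/cKit- cells.

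**Figure D1:**
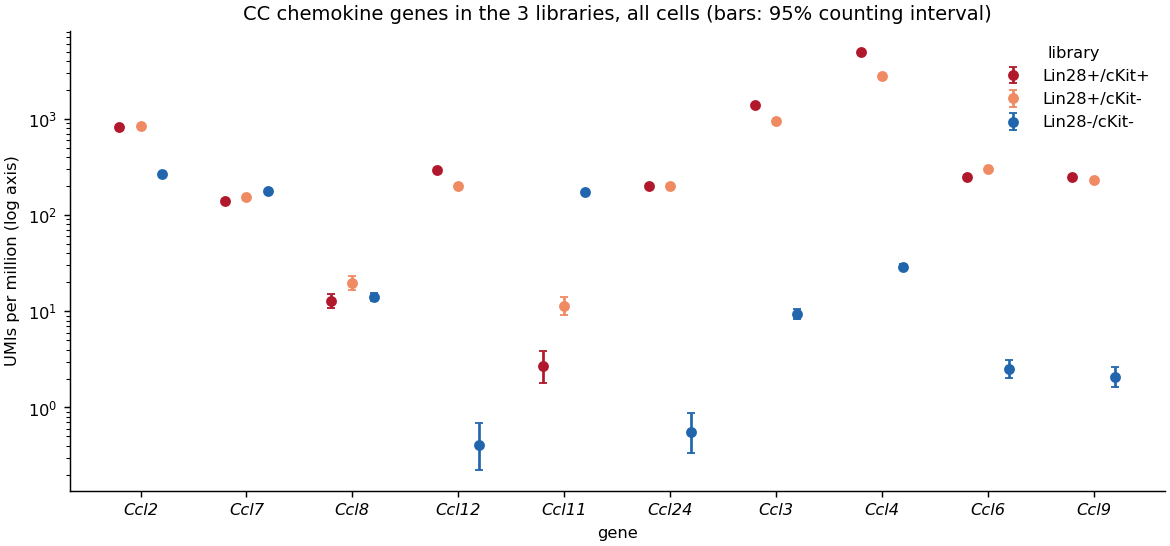
Level of each of the 10 genes over all cells of the Lin28+/cKit+, Lin28+/cKit- and Lin28-/cKit- libraries, in CPM on a log axis, with 95% counting intervals. Ccl4 reaches 4886 and 2786 in the Lin28+ libraries and 29.0 in the Lin28-/cKit- library, Ccl7 differs little, and Ccl11 is the gene with its highest level in the Lin28-/cKit- library by a wide margin, at 172.

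Against the Lin28-/cKit- library, 7 of the 10 genes were higher in the Lin28+/cKit- library, where 16.0% of the 13765 genes measured were higher, and 1 was lower, where 17.4% were. The ratios were 490 (291 to 898) for Ccl12, 358 (228 to 596) for Ccl24, 118 (94.9 to 148) for Ccl6, 112 (88.2 to 144) for Ccl9, 100.4 (89.8 to 113) for Ccl3, 96.2 (90.2 to 103) for Ccl4 and 3.22 (3.11 to 3.32) for Ccl2. Ccl11 was 0.0661 (0.0526 to 0.0819) of its Lin28-/cKit- level, and Ccl8 (1.41) and Ccl7 (0.860) stayed within 2-fold. The median log2 ratio was 6.62 over the 10 genes and -0.08 over all genes measured.
The same 7 genes were higher, and the same 1 lower, in the Lin28+/cKit+ library against the Lin28-/cKit- library, where 14.9% of all genes were higher and 21.0% lower. These comparisons share the Lin28-/cKit- library. The ratios ran to 720 (429 to 1319) for Ccl12, 169 (158 to 180) for Ccl4 and 147 (131 to 165) for Ccl3, with Ccl2 at 3.09 and Ccl11 at 0.0157. Between the 2 Lin28+ libraries, Ccl11 was the only 1 of the 10 past 2-fold, at 0.237 (0.149 to 0.368) of its Lin28+/cKit- level in Lin28+/cKit+ cells. In that comparison 4.39% of all genes were lower and 1.19% higher. The Ccl11 ratio rested on 28 UMIs in 4 Lin28+/cKit+ cells and 84 UMIs in 11 Lin28+/cKit- cells. A single cell in each library held 16 and 41 of them. Ccl4 followed at 1.75 (1.73 to 1.78), Ccl8 at 0.653 (0.513 to 0.831), Ccl12 at 1.47 and Ccl3 at 1.46. Ccl6 stood at 0.838, Ccl7 at 0.909 and Ccl2 at 0.961, while the intervals of Ccl24 (0.933 to 1.07) and Ccl9 (0.9996 to 1.13) included 1. The shares of macrophage-like and fibroblast-like cells also differed between the libraries, and in whole libraries more cells of a type and more RNA per cell cannot be told apart, so the levels within each class are given next.

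In the Lin28+ libraries, macrophage-like cells held most of the molecules of every gene but Ccl11. They contributed 65.4% of all UMIs in the Lin28+/cKit+ library and 60.0% in the Lin28+/cKit- library. Of the UMIs of Ccl24, Ccl6, Ccl3, Ccl9 and Ccl4, between 94.5% (Ccl4) and 95.7% (Ccl24) lay in these cells in Lin28+/cKit+ and between 93.5% (Ccl4) and 96.5% (Ccl24) in Lin28+/cKit-. For Ccl7 the share was lower, at 85.9% in Lin28+/cKit+ and 84.1% in Lin28+/cKit-. The single gene with another source was Ccl11, with 27 of its 28 UMIs in the 10 fibroblast-like cells of the Lin28+/cKit+ library and 67.9% of its UMIs in the 40 fibroblast-like cells of the Lin28+/cKit- library.
In the Lin28-/cKit- library, fibroblast-like cells held 96.7% of the UMIs of Ccl2, 97.5% of Ccl7, 94.1% of Ccl8 and 96.0% of Ccl11, against 82.8% of all UMIs. In contrast, the 14 macrophage-like cells there, with 0.317% of all UMIs, held 12 of the 14 UMIs of Ccl12, 18 of the 19 of Ccl24, 732 of the 986 of Ccl4 and 169 of the 320 of Ccl3. Unnamed cells held 133 of the Ccl3 UMIs. Ccl9 had 32 of its 71 UMIs in the macrophage-like cells and 32 in unnamed cells. Ccl6 had 20.9% of its 86 UMIs in the macrophage-like cells. A further 60 Ccl6 UMIs lay in 60 cells of an unnamed cluster led by S100a9, S100a8 and Nkg7, genes of neutrophils and killer cells.

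**Figure D2:**
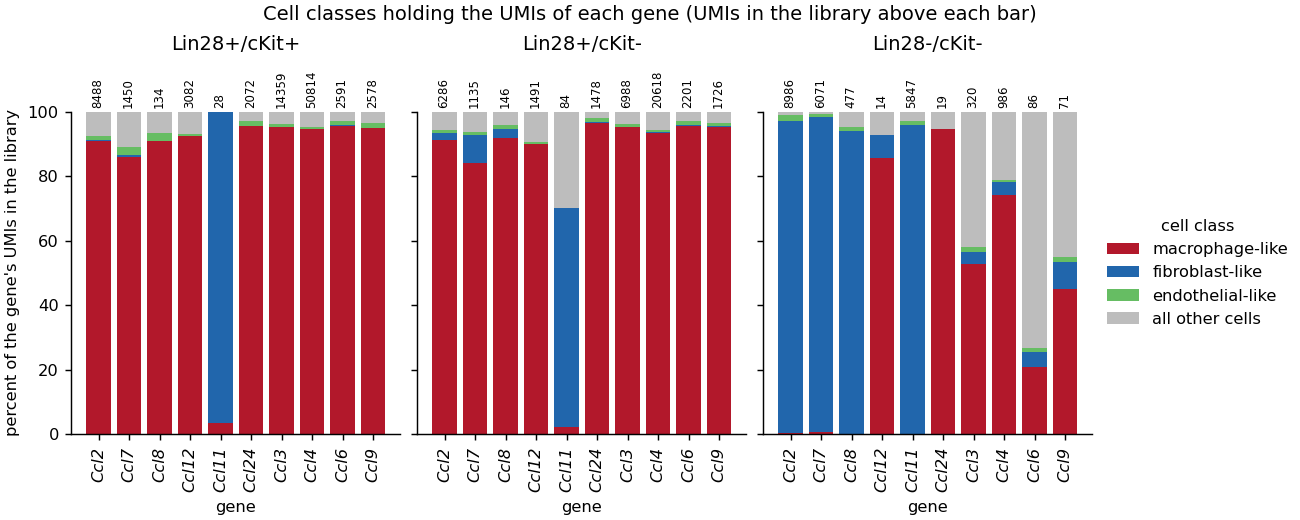
Share of each gene's UMIs by cell class (percent, bars) in each library, with the number of UMIs above each bar. Macrophage-like cells fill at least 84.1% of the bars of 9 genes in both Lin28+ libraries, and fibroblast-like cells fill at least 94.1% of the bars of Ccl2, Ccl7, Ccl8 and Ccl11 in the Lin28-/cKit- library.

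Macrophage-like cells of the Lin28+ libraries expressed 9 of the 10 genes, in an order that was nearly the same in both. In Lin28+/cKit+ cells it ran from Ccl4 (7065 CPM, 7002 to 7128) and Ccl3 (2013) through Ccl2 (1136), Ccl12 (419), Ccl6 (364), Ccl9 (360), Ccl24 (292) and Ccl7 (183) to Ccl8 (17.9). In Lin28+/cKit- cells it ran from Ccl4 (4345, 4283 to 4406) and Ccl3 (1499) through Ccl2 (1292), Ccl6 (474), Ccl9 (371), Ccl24 (322), Ccl12 (302) and Ccl7 (215) to Ccl8 (30.2).
Neighbours whose intervals overlapped, so that counting alone does not order them, were Ccl6 (350 to 379) and Ccl9 (346 to 375) in Lin28+/cKit+ cells and Ccl24 (305 to 339) and Ccl12 (286 to 319) in Lin28+/cKit- cells. Ccl11 gave 1 UMI in 596 cells and 2 UMIs in 268 cells. With every cell thinned to 1000 UMIs, Ccl4 was found in 81.7% of macrophage-like cells and in 14.4% of endothelial-like cells of the Lin28+/cKit+ library, and in 71.2% and 5.86% of those of the Lin28+/cKit- library. Unthinned, at medians of 9853.5 and 5581 UMIs per cell in Lin28+/cKit+, the shares were 96.6% and 59.4%.
The 14 macrophage-like cells of the Lin28-/cKit- library were too few to compare, and their levels are given alone: 6776 (6294 to 7285) CPM of Ccl4, 1564 (1337 to 1819) of Ccl3, 435 of Ccl2, 296 of Ccl9, 167 of both Ccl6 and Ccl24, and 111 of Ccl12. All 40 of their Ccl7 UMIs and 35 of their 47 Ccl2 UMIs came from a single cell each.

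**Figure D3:**
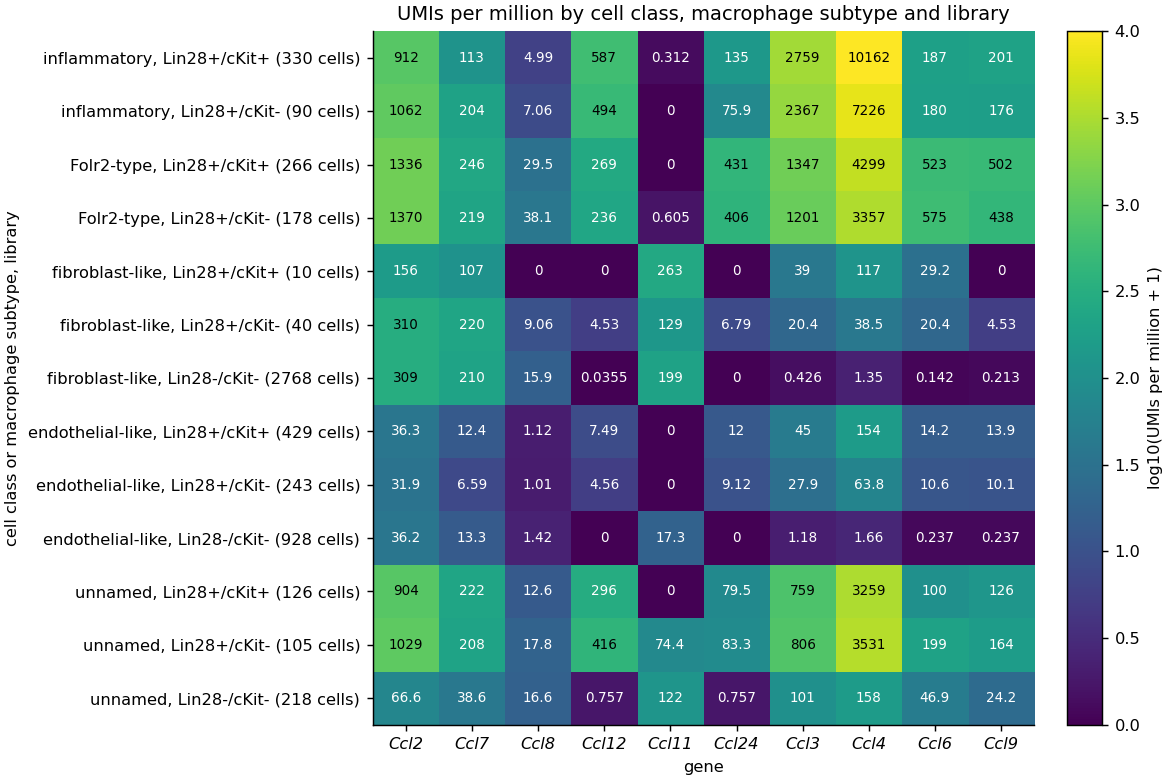
Level of each gene (columns) in each cell class or macrophage subtype of each library (rows), coloured by log10(CPM + 1). Higher levels are brighter: the inflammatory and Folr2-type macrophage rows are brightest for Ccl4 (10162 and 4299 in Lin28+/cKit+) and darkest for Ccl11, and the fibroblast-like row of Lin28-/cKit- is bright for Ccl2 (309), Ccl7 (210) and Ccl11 (199).

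Within macrophage-like cells, none of the 9 measured genes reached 2-fold between the Lin28+/cKit+ and Lin28+/cKit- libraries, where 1.1% of 10487 genes were higher and 1.59% lower. The highest ratio was that of Ccl4, 1.63 (1.60 to 1.65), followed by Ccl12 at 1.39 (1.30 to 1.48) and Ccl3 at 1.34 (1.30 to 1.38). The lowest was that of Ccl8, 0.594 (0.461 to 0.765), on 122 and 134 UMIs. Ccl6 stood at 0.769 (0.725 to 0.815), Ccl7 at 0.852, Ccl2 at 0.880 and Ccl24 at 0.907. Ccl9 (0.971) had an interval that included 1 (0.912 to 1.03). TMM scaling, which moves all genes alike by 0.10 on the log2 scale, put it above 1. The median log2 ratio over all genes measured was -0.09 here.
The mix of macrophages differed between these libraries: cells of the inflammatory subtype described next numbered 330 of 596 in Lin28+/cKit+ and 90 of 268 in Lin28+/cKit-.

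Macrophage-like cells fell into a pair of clusters. In the first, 4 of 9 inflammatory markers and none of the Folr2-type markers were raised, and Il1b, Mmp13 and the antigen presentation genes H2-Eb1, H2-Aa, H2-Ab1 and Cd74 led it; it held 330, 90 and 13 cells in the Lin28+/cKit+, Lin28+/cKit- and Lin28-/cKit- libraries. It is called inflammatory here by those markers, and its leading genes also include those of antigen presentation. In the second, 8 of 9 markers of Folr2-type resident macrophages were raised and Retnla, Fcna, Folr2, F13a1 and Timd4 led it; it held 266, 178 and 1 cells.
Ccl3, Ccl4 and Ccl12 had their higher levels in the inflammatory cells, and Ccl24, Ccl6, Ccl9 and Ccl8 in the Folr2-type cells, in each of the 2 libraries. Ccl4 stood at 10162 CPM in inflammatory and 4299 in Folr2-type cells of the Lin28+/cKit+ library, and at 7226 and 3357 in those of the Lin28+/cKit- library. Ccl3 stood at 2759 in inflammatory and 1347 in Folr2-type cells of Lin28+/cKit+, and at 2367 and 1201 in those of Lin28+/cKit-. Ccl12 stood at 587 and 269 in Lin28+/cKit+ and at 494 and 236 in Lin28+/cKit-.
The genes that ran the other way were the Ccr1 ligands and Ccl24. Ccl6 stood at 187 CPM in inflammatory and 523 in Folr2-type cells of Lin28+/cKit+, and at 180.0 and 575 in those of Lin28+/cKit-. Ccl9 stood at 201 and 502 in Lin28+/cKit+ and at 176 and 438 in Lin28+/cKit-. Ccl24 stood at 135 and 431 in Lin28+/cKit+ and at 75.9 and 406 in Lin28+/cKit-.

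Of the 9 measured genes in the Lin28+/cKit+ library, 3 were higher in inflammatory cells (1.56% of all genes were) and 5 lower (4.49% of all genes were). The higher ones were Ccl4 at 2.36 (2.32 to 2.41), Ccl12 at 2.18 (2.02 to 2.36) and Ccl3 at 2.05 (1.98 to 2.12). The lower ones were Ccl8 at 0.169 (0.0933 to 0.288), Ccl24 at 0.314 (0.282 to 0.350), Ccl6 at 0.358 (0.326 to 0.393), Ccl9 at 0.401 (0.366 to 0.439) and Ccl7 at 0.457 (0.403 to 0.517). Ccl2 lay between, at 0.682 (0.652 to 0.715), with 912 CPM in inflammatory and 1336 in Folr2-type cells.
In the Lin28+/cKit- library, 2 were higher (2.22% of all genes were) and 4 lower (7.46% were). They were Ccl4 at 2.15 (2.09 to 2.22) and Ccl12 at 2.09 (1.87 to 2.34) on the one side, and Ccl8 at 0.185, Ccl24 at 0.187, Ccl6 at 0.313 and Ccl9 at 0.401 on the other. Ccl3 missed 2-fold narrowly, at 1.97 (1.88 to 2.07). Ccl2 stood at 0.775 and Ccl7 at 0.930 (0.799 to 1.08). Single cells weighed on several of these genes. Without the cell with the most UMIs in each group, Ccl12 came to 1.94 in Lin28+/cKit+ and 1.65 in Lin28+/cKit-. Ccl7 came to 0.579 (0.472 to 0.705) in Lin28+/cKit-. Ccl8 came to 0.235 (0.118 to 0.431) in Lin28+/cKit+, where a single Folr2-type cell held 44 of 106 UMIs, and to 0.195 in Lin28+/cKit-. Ccl24 came to 0.288 in Lin28+/cKit+ and 0.145 in Lin28+/cKit-. The median depth of inflammatory cells was lower, at 9187.5 UMIs against 11269 for Folr2-type cells in Lin28+/cKit+ and 12328 against 15615.5 in Lin28+/cKit-; its part in the ratios was not tested.

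**Figure D4:**
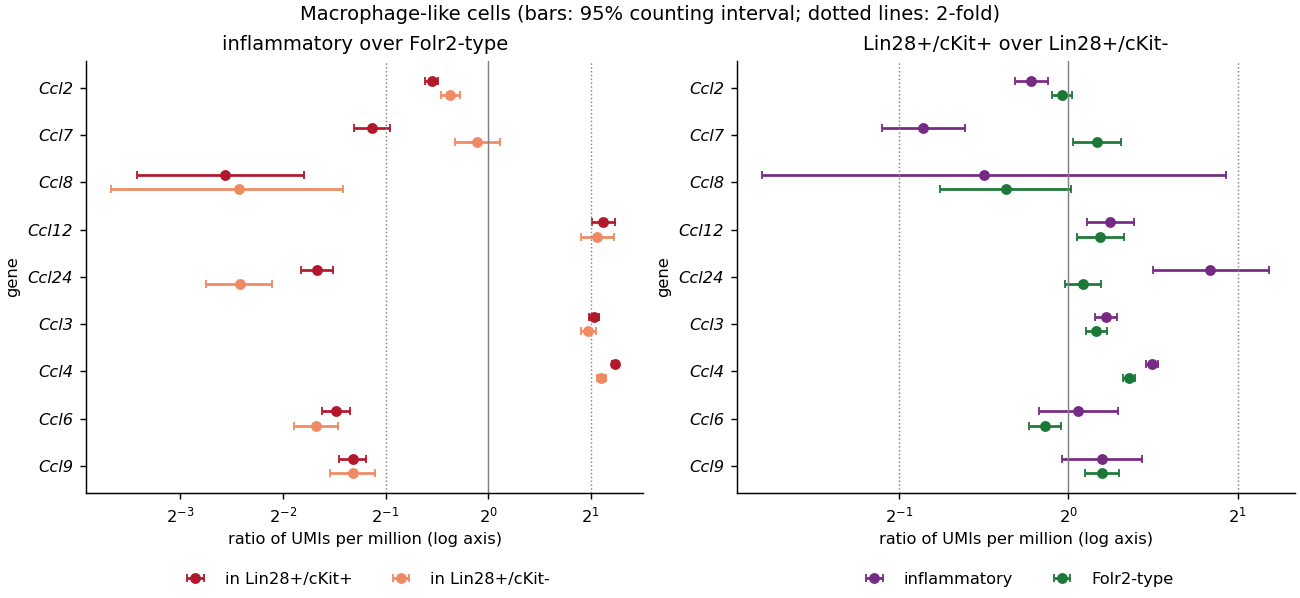
Ratios of CPM for 9 genes in macrophage-like cells, on a log axis with 95% counting intervals. Left, inflammatory over Folr2-type cells in each Lin28+ library: Ccl3, Ccl4 and Ccl12 lie near or above 2 and Ccl6, Ccl8, Ccl9 and Ccl24 below 0.5 in both. Right, Lin28+/cKit+ over Lin28+/cKit- within each subtype: every point lies between 0.5 and 2.

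Within either subtype, none of the 9 genes reached 2-fold between Lin28+/cKit+ and Lin28+/cKit- cells. Among Folr2-type cells, where 0.981% of all genes were higher and 1.6% lower, the ratios ran between 0.774 (0.592 to 1.01) for Ccl8 and 1.28 (1.25 to 1.31) for Ccl4. Among inflammatory cells, where 2.93% of all genes were higher and 2.59% lower, they ran between 0.552 (0.467 to 0.654) for Ccl7 and 1.78 (1.41 to 2.27) for Ccl24. Ccl4 was 1.41 (1.37 to 1.44) and Ccl3 1.17 (1.12 to 1.22) among inflammatory cells. The class-wide ratios of 1.63 for Ccl4 and 1.34 for Ccl3 were thus above those of each subtype, and the class-wide 0.907 for Ccl24 was below both of its subtype values, 1.78 in inflammatory and 1.06 in Folr2-type cells. A cell with 111 of the 231 Ccl7 UMIs of the inflammatory Lin28+/cKit- group set the low Ccl7 ratio. Without the cell with the most UMIs in each group it came to 0.885 (0.714 to 1.10), and Ccl24 came to 2.11 (1.62 to 2.80). Among Folr2-type cells, Ccl8 came to 0.632 (0.450 to 0.884) without such cells.

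Folr2-type cells were split further by the transcript of Timd4, a phosphatidylserine receptor of long-lived resident macrophages. In the Lin28+/cKit+ library 177 of these cells had a Timd4 UMI and 89 had none, and in the Lin28+/cKit- library 129 had one and 49 had none. Cells with a Timd4 UMI were also deeper, with medians of 12110 against 10127 UMIs in Lin28+/cKit+ and 17919 against 11009 in Lin28+/cKit-, and the part of depth in what follows was not tested.
Ccl6 and Ccl9 were above 1 in both libraries but within 2-fold, at 1.26 (1.13 to 1.41) and 1.61 (1.39 to 1.86) for Ccl6 in Lin28+/cKit+ and Lin28+/cKit- cells, and at 1.35 (1.21 to 1.52) and 1.42 (1.22 to 1.67) for Ccl9. In the Lin28+/cKit- library 2 genes were higher in cells with Timd4, where 3.27% of all genes were higher and 3.21% lower: Ccl7 at 2.79 (2.10 to 3.78), with 247 CPM in cells with Timd4 and 88.5 in cells without, and Ccl8 at 3.59 (1.69 to 9.13), on 119 and 7 UMIs. In the Lin28+/cKit+ library 1 gene, Ccl8, was lower in cells with Timd4, at 0.350 (0.234 to 0.522), where 2.41% of all genes were lower and 2.56% higher. In cells without Timd4 a single cell held 44 of the 54 Ccl8 UMIs, and without the cell with the most UMIs in each group the ratio was 1.59 (0.786 to 3.53). Ccl2 stood at 0.934 (0.876 to 0.995) in Lin28+/cKit+ and at 1.73 (1.58 to 1.91) in Lin28+/cKit-.

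Fibroblast-like cells of the Lin28-/cKit- library expressed 4 of the 10 genes. Ccl2 stood at 309 (302 to 315) CPM, Ccl7 at 210 (205 to 216), Ccl11 at 199 (194 to 204) and Ccl8 at 15.9 (14.5 to 17.5). The other 6 genes lay at 1.35 CPM (Ccl4) or less, and Ccl24 had no UMI in 2768 cells. With every cell thinned to 1000 UMIs, Ccl2 was found in 11.4% of these cells, Ccl11 in 11.3% and Ccl7 in 9.08%, against 1.96%, 0.762% and 1.41% of endothelial-like cells of that library; unthinned, at medians of 10150 and 4061 UMIs per cell, 26.9%, 25.5% and 25.1% of fibroblast-like cells and 5.82%, 2.91% and 3.66% of endothelial-like cells had a UMI.
The few fibroblast-like cells of the Lin28+ libraries gave Ccl11 at 263 (173 to 383) CPM in the 10 cells of Lin28+/cKit+ and 129 (97.8 to 167) in the 40 of Lin28+/cKit-, with Ccl2 at 156 and 310 and Ccl7 at 107 and 220. Single cells held 16 of 27 Ccl11 UMIs in Lin28+/cKit+ and 41 of 57 in Lin28+/cKit-, so these levels are listed and not compared.
Against endothelial-like cells of the same library, 4 of the 5 measured genes were higher in fibroblast-like cells, where 16.4% of all genes were higher and 16.4% lower: Ccl7 at 15.9 (12.2 to 21.0), Ccl11 at 11.5 (9.16 to 14.7), Ccl8 at 11.2 (5.12 to 30.8) and Ccl2 at 8.52 (7.26 to 10.1). Ccl4, the fifth, had 38 and 7 UMIs and a ratio of 0.814 (0.359 to 2.16).

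The 5 fibroblast-like clusters differed in which of the genes they carried. Cluster 4, led by Cd248 and Sema3c and with all 4 of 4 markers of the Pi16 type of adventitial fibroblasts raised, had the highest levels of Ccl2 (439 CPM) and Ccl7 (334). Cluster 3, led by Inmt and Apod, had the highest level of Ccl11 (372). Cluster 9, led by Cilp and Postn, had the lowest of Ccl11 (31.9), Ccl7 (71.4) and Ccl8 (3.99).
Ccl2 ran from cluster 4 (439) through cluster 0 (385, led by Gsta3) and cluster 3 (256) to clusters 9 (181) and 1 (172, led by G0s2 and Ndufa4l2), and the last pair did not differ beyond counting, at 1.05 (0.936 to 1.18). Ccl7 ran from cluster 4 (334) through cluster 3 (275) and cluster 0 (225) to clusters 1 (73.5) and 9 (71.4), which did not differ either, at 0.972 (0.807 to 1.16) for cluster 9 over cluster 1. Ccl11 ran from cluster 3 (372) through clusters 1 (222), 0 (190) and 4 (98.2) to cluster 9 (31.9), with 11.6 (9.21 to 14.95) for cluster 3 over cluster 9 and 3.79 (3.45 to 4.17) for cluster 3 over cluster 4. Ccl8 was highest in clusters 4 (27.0) and 3 (23.6), which did not differ beyond counting, at 1.15 (0.899 to 1.47).
The monocyte chemoattractants and Ccl11 therefore had different orders: cluster 4 was highest for Ccl2 and Ccl7 but next to lowest for Ccl11, and cluster 1 was second for Ccl11 and last for Ccl2. Cluster 4 over cluster 1 came to 4.55 (4.11 to 5.04) for Ccl7, 2.56 (2.38 to 2.75) for Ccl2 and 0.443 (0.401 to 0.489) for Ccl11. For Ccl2, cluster 4 over cluster 0 came to 1.14 (1.08 to 1.20). The weight of single cells on the levels of these clusters was not tested. The median depth was 12646 UMIs per cell in cluster 4 and 8162 in cluster 1, and its part in the ratios was not tested.

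**Figure D5:**
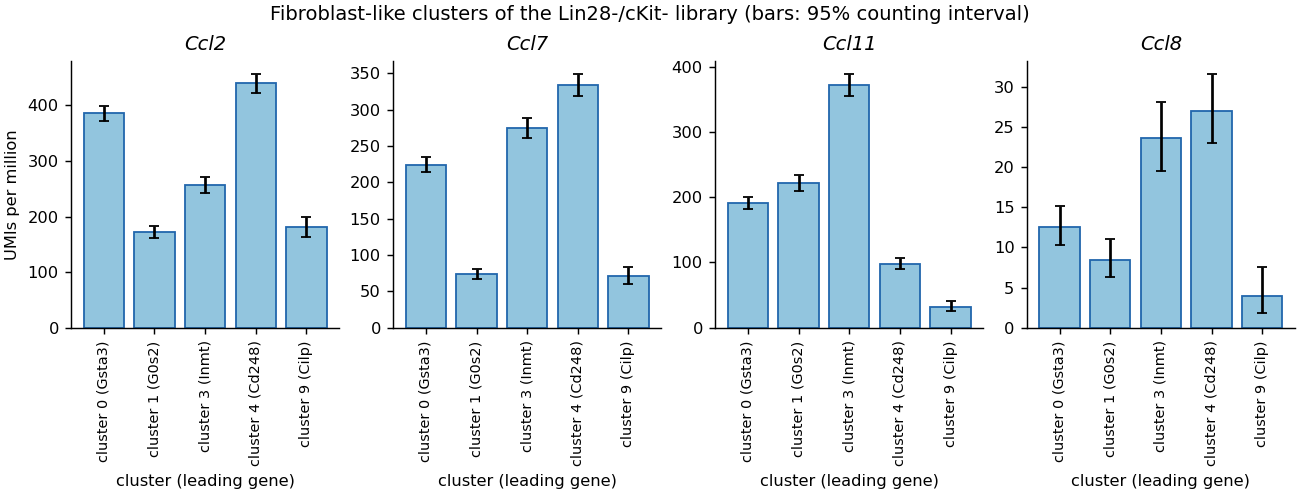
Levels of Ccl2, Ccl7, Ccl11 and Ccl8 in the 5 fibroblast-like clusters of the Lin28-/cKit- library, in CPM with 95% counting intervals; each panel has its own axis from 0. Cluster 4 is highest for Ccl2 (439) and Ccl7 (334), cluster 3 for Ccl11 (372), and cluster 9 is lowest for Ccl11 (31.9).

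Endothelial-like cells had low levels of the 10 genes, and macrophage markers were found in the same cells. The part of macrophage RNA in these levels was not tested within a library. For the comparisons between libraries, a subtraction at the share of the markers is given below. Within a library, all 9 measured genes were higher in macrophage-like than in endothelial-like cells of Lin28+/cKit+ (16.4% of all genes were higher and 26.0% lower) and all 9 in those of Lin28+/cKit- (17.1% higher and 23.5% lower). In Lin28+/cKit+ the endothelial-like level of these genes was 1.79% (Ccl12) to 6.74% (Ccl7) of the macrophage-like level. The 10 macrophage markers, summed, stood at 2.75% of their macrophage-like level in the same endothelial-like cells, from 2.22% to 4.47% by gene and none at 0. Ccl7 (6.74%) and Ccl8 (6.26%, on 3 UMIs) lay above the range of the markers. In Lin28+/cKit- the chemokine genes were at 1.47% (Ccl4) to 3.36% (Ccl8) and the markers at 1.78%, from 1.30% to 3.25%.
Ccl4 stood at 154 (140 to 170) CPM in endothelial-like cells of Lin28+/cKit+, 63.8 (53.2 to 76.0) in those of Lin28+/cKit- and 1.66 (0.666 to 3.41) in those of Lin28-/cKit-. No endothelial-like cell held more than 6 Ccl4 UMIs. In the Lin28-/cKit- library, where the summed macrophage markers were at 0.0538% of their macrophage-like level and 4 of the 10 were at 0, Ccl12 and Ccl24 had no UMI in 928 endothelial-like cells.

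Between libraries, 1 of 8 measured genes, Ccl4, was higher in endothelial-like cells of Lin28+/cKit+ than of Lin28+/cKit-, at 2.42 (1.98 to 2.98), where 2.5% of all genes were higher and 1.51% lower. Against the Lin28-/cKit- library, 4 of 7 measured genes were higher (Ccl3, Ccl4, Ccl6 and Ccl9; 1.79% of all genes were) and 2 lower (Ccl11 and Ccl7; 5.98% were) in Lin28+/cKit- cells. In Lin28+/cKit+ cells 6 of 9 were higher than in the Lin28-/cKit- library (Ccl3, Ccl4, Ccl6, Ccl9, Ccl12 and Ccl24; 1.46% were) and 1, Ccl11, lower (4.71% were).
The ratios were 38.5 (18.2 to 97.8) for Ccl4 and 23.5 (9.503 to 75.4) for Ccl3 in Lin28+/cKit- over Lin28-/cKit- cells, and 93.2 (44.8 to 233) and 38.0 (15.8 to 119) in Lin28+/cKit+ over Lin28-/cKit- cells. After RNA of macrophage-like and fibroblast-like cells was subtracted at the share of their markers, 0, 1 and 1 of the genes kept the 20 UMIs needed for a comparison in the 3 pairs of libraries, and none of those was higher, so most of these differences could no longer be measured.
Ccl2 stood at 36.3, 31.9 and 36.2 CPM over the endothelial-like cells of Lin28+/cKit+, Lin28+/cKit- and Lin28-/cKit-, but the last value rested on 1 cell, in cluster 10 (led by H19). In the other 3 endothelial-like clusters Ccl2 was lowest in Lin28-/cKit-, at 33.1, 34.2 and 11.1 CPM in cluster 2 (led by Car4), 29.98, 42.0 and 18.4 in cluster 6 (led by Sema3g) and 24.5, 25.2 and 15.3 in cluster 8 (led by Serpina1b); the counting intervals of the libraries overlapped in clusters 6 and 8, and that of Lin28-/cKit- lay below both others in cluster 2. In the Lin28-/cKit- library 84 of its 153 UMIs and 45 of the 73 Ccl11 UMIs came from a single cell each, and the summed fibroblast markers in these cells stood at 9.12% of their fibroblast-like level, against 11.7% for Ccl2, 8.67% for Ccl11 and 6.30% for Ccl7.

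The genes differed in how evenly cells carried them. Ccl9 and Ccl6 were the most even in Folr2-type cells: the 10% of cells with the most UMIs of the gene held 32.0% and 33.1% of them in Lin28+/cKit+ and 29.7% and 36.3% in Lin28+/cKit-, against 21.95% and 22.2% of all UMIs in the deepest 10% of cells. For Ccl4 the share was 39.1% and 38.3% in the same cells and 29.5% in inflammatory cells of Lin28+/cKit+. The median inflammatory cell of Lin28+/cKit+ held 79.5 Ccl4 UMIs, and the median Folr2-type cell 31.5.
Ccl7 and Ccl8 were the most uneven in Folr2-type cells by this share, and had the fewest UMIs there of the 9 genes. Ccl7 had 885 UMIs and Ccl8 106 in Lin28+/cKit+, against 15444 for Ccl4. A gene with few UMIs has a high share by counting alone, and the part of abundance in the order was not tested. The top 10% of Folr2-type cells held 73.9% of Ccl7 UMIs in Lin28+/cKit+ and 84.0% in Lin28+/cKit-, 10% of inflammatory cells 93.6% and 92.6%, and the median cell had none. Fibroblast-like cells were uneven for all of their genes, with 89.6% of Ccl2, 88.2% of Ccl7 and 83.1% of Ccl11 UMIs in 10% of the cells, against 17.6% of all UMIs in the deepest 10%. The highest fibroblast-like cell held 336 Ccl2 UMIs.

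Some pairs of neighbouring genes went together from cell to cell and others did not. Over log-scaled values of cells with at least 1000 UMIs, the correlation of Ccl3 with Ccl4 was 0.599 and 0.523 over 266 and 177 Folr2-type cells of Lin28+/cKit+ and Lin28+/cKit-, and 0.591 and 0.483 over 330 and 90 inflammatory cells. That of Ccl6 with Ccl9 was 0.486 and 0.600 over Folr2-type cells and 0.325 and 0.512 over inflammatory cells. That of Ccl2 with Ccl7 was 0.427 and 0.446 over Folr2-type cells, 0.277 over inflammatory cells of Lin28+/cKit- and 0.295 over 2719 fibroblast-like cells. Ccl2 with Ccl12, which are not neighbours, stood at 0.224 and 0.208 over Folr2-type cells and 0.336 and 0.358 over inflammatory cells. The neighbours Ccl3 and Ccl6 stood at -0.02 and 0.05 over Folr2-type cells and -0.06 and -0.14 over inflammatory cells, and the neighbours Ccl7 and Ccl11 at 0.018 over fibroblast-like cells. Ccl24 with Ccl4 stood at -0.14 and -0.02 over Folr2-type cells and at -0.05 and 0.03 over inflammatory cells. The cells of a correlation share a library and its depth, and the single genes correlated with depth at -0.0257 (Ccl24, inflammatory cells of Lin28+/cKit-) to 0.354 (Ccl4, inflammatory cells of Lin28+/cKit-).
For 5 of the genes (Ccl8, Ccl12, Ccl3, Ccl6 and Ccl9) a promoter was in the RefSeq table for GRCm38.p6. The 250 bases before the start site were searched on both strands for the NF-kB motif, the AP-1 motif TGANTCA and the STAT motif, which occurred in 4.65%, 6.75% and 5.85% of 32851 windows of that length. Ccl9 was the 1 of the 5 with a match, to AP-1 at position -53 and to NF-kB, on the other strand, at position -35 from the start site. Its window, chr11:83578637-83578886 read on the minus strand, is printed with the matches in capitals because Ccl9 went with Ccl6, whose window had no match.
Ccl9 promoter: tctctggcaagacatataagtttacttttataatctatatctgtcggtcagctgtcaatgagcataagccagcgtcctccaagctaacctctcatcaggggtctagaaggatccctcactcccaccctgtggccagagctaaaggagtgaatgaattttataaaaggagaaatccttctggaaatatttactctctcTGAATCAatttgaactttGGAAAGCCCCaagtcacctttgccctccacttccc

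Across 27 units of a cluster in a library, the genes with the most similar pattern of log-scaled level, among 6381 genes, followed the same split into macrophage genes and stromal genes. For Ccl4 they were Lyz2 (0.988), Csf1r (0.978) and Fcgr3 (0.972), for Ccl3 Tyrobp (0.981), for Ccl6 Lilr4b (0.976), for Ccl9 Adgre1 (0.970), for Ccl24 Trem2 (0.963) and for Ccl12 Mrc1 (0.983). For Ccl11 they were Col5a3 (0.954), Srpx2 (0.954) and Pcdh18 (0.953). Ccl2 and Ccl7, present in both kinds of cell, were nearest to Ctsb (0.916) and to Cxcl1, a CXC chemokine (0.934), and Ccl8 to Itsn1 (0.831). Among the 10 genes, Ccl3 and Ccl4 were the most similar pair (0.971), and Ccl11 had negative values with Ccl3 (-0.68), Ccl4 (-0.67), Ccl12 (-0.66) and Ccl24 (-0.66). These are correlations over units that share libraries and cell classes.

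The signalling receptors of the ligands were low in these cells. Of the 11 CC chemokine receptor genes, 10 were listed. Ccrl2, a non-signalling receptor that binds chemerin, stood at 1506 CPM in macrophage-like cells of Lin28+/cKit+ and 1291 in those of Lin28+/cKit-. Ccr1, a receptor of Ccl3, Ccl6 and Ccl9, stood at 43.5 and 49.3, and Ccr2 at 41.5 and 45.5. Between the subtypes, Ccr1 was lower in inflammatory cells, at 24.6 CPM against 60.4 in Folr2-type cells of Lin28+/cKit+ and 18.5 against 59.9 in those of Lin28+/cKit-. Ccr2 stood at 49.0 against 34.8 and, past 2-fold, at 91.8 against 29.7.
Of the 4 atypical receptors, which take up chemokines without signalling through G proteins, Ackr3 was the most abundant, at 277 CPM in fibroblast-like and 111 in endothelial-like cells of the Lin28-/cKit- library. All 4 together summed to 319 and 123 CPM in the same cells. Whether Ackr3 or the others bind any of the 10 ligands was not examined here. Of 6 genes that cut or bind chemokines, Sdc4, a heparan sulfate carrier, stood at 707 and 650 CPM in macrophage-like cells of Lin28+/cKit+ and Lin28+/cKit-, and Mmp2, a protease that trims chemokines, at 513 in fibroblast-like cells of Lin28-/cKit-.

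None of the 14 immediate early and heat shock genes and none of the 12 NF-kB genes reached 2-fold between Lin28+/cKit+ and Lin28+/cKit- in macrophage-like cells or in either subtype, nor between the subtypes. With 1.1% of all genes higher and 1.59% lower in macrophage-like cells, a count of 0 is near the share over all genes. The shares higher and lower were 0.981% and 1.6% in Folr2-type cells and 2.93% and 2.59% in inflammatory cells. Between the subtypes they were 1.56% and 4.49% in Lin28+/cKit+ and 2.22% and 7.46% in Lin28+/cKit-. In lists this short, no result is read from a count of 0. The sums of both lists are given because such genes respond to tissue digestion. The immediate early and heat shock genes summed to 49560 CPM in inflammatory and 44354 in Folr2-type cells of Lin28+/cKit+, and to 44962.5 and 42808 in those of Lin28+/cKit-. The NF-kB genes summed to 7665 and 5942 in Lin28+/cKit+ and to 7709.5 and 6364 in Lin28+/cKit-. Among fibroblast-like clusters of Lin28-/cKit-, the immediate early and heat shock genes summed to 7633 CPM in cluster 1. In clusters 0, 3, 4 and 9 they summed to 36838.5, 34191, 24156 and 24239. The NF-kB genes summed to 468 in cluster 1 and to 1521, 2071, 2148 and 1422 in the same other clusters. The part of both lists in the chemokine levels was not tested.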

How the data were processed

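The 3 tables of 1 value per gene and cell were analysed, 1 per library of sorted mouse heart cells (10x 3′ kit v3.1). The deposited values are on a natural log scale, ln(1 + 10000 × UMIs / UMIs of the cell), and the submitters' processing notes name Cell Ranger, Seurat 4.0.2 and mm10; their filters and roles were not stated. Whole UMIs were recovered from the deposited natural log values, 100.0% of values being whole within 0.01, and no column belonged to another sample. With 1 library per group no test was run: UMIs were summed by library and class, with exact Poisson intervals for levels, exact conditional binomial intervals for ratios and Clopper-Pearson intervals for shares, all at 95% and for counting error only. A comparison needed 20 UMIs in the pair. For ratios and calls, though not for their intervals, a group with fewer than 3 UMIs was set at a floor of 3. Cells were clustered with scanpy 1.11.5 and leidenalg 0.10.2 (2000 variable genes without chemokine genes and Kit, 30 components, 15 neighbours, resolution 1) and clusters named from fixed markers; clusters of unclear markers stayed unnamed. No cell was removed; Scrublet scores above 0.25 marked 0.680%, 1.03% and 2.39% of cells in Lin28+/cKit+, Lin28+/cKit- and Lin28-/cKit-. Thinning to 1000 UMIs left out 61, 68 and 107 shallower cells. Members, lists and markers were chosen with earlier results of these data known. All 10 genes are named; genes of similar pattern are the 3 with the highest Pearson correlation over units of 20 or more cells. Alternatives are given in the closing section.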

Additional observations from a re-analysis of the deposited data

Results flagged for a closer look

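A gene is given here where its ratio under the same contrast had a whole counting interval above 1 in 1 group of cells and below 1 in the other. With 1 library per group, none of these differences was tested. Ccl7 in Lin28+/cKit+ over Lin28+/cKit- cells was 0.552 (0.467 to 0.654) in inflammatory cells, where 1 cell of the Lin28+/cKit- library held 111 of 231 UMIs, and 1.12 (1.02 to 1.24) in Folr2-type cells; without the cell with the most UMIs in each group the values were 0.885 and 1.21. In Folr2-type cells with over those without a Timd4 UMI, Ccl2 was 0.934 in Lin28+/cKit+ and 1.73 in Lin28+/cKit-, and Ccl4 was 0.934 and 1.32. Ccl8 was 0.350 in Lin28+/cKit+ and 3.59 in Lin28+/cKit-, and the first became 1.59 without the cell with the most UMIs in each group. Without those cells the Lin28+/cKit+ intervals of Ccl2 (0.879 to 1.002) and Ccl4 (0.933 to 1.003) included 1.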

How the results depend on the processing

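Of 83 alternative counts of genes past 2-fold, 72 stayed within 1.5 times the reported count. Reversals of called ratios were looked for only in macrophage-like cells of Lin28+/cKit+ over Lin28+/cKit-. No gene was past 2-fold there, so none could be found. Directions in the other comparisons were not checked this way. At 1.5-fold, 3 genes were past it between Lin28+/cKit+ and Lin28+/cKit- over all cells (1 at 2-fold) and 2 in macrophage-like cells (0 at 2-fold). In endothelial-like cells of Lin28+/cKit+ over Lin28+/cKit-, 1 gene was past 2-fold, against 2 with the mean over cells, 4 at 1.5-fold, 2 without the cell with the most UMIs of each gene and 0 with free RNA subtracted. For Lin28+/cKit- over Lin28-/cKit- endothelial-like cells, the 6 calls became 1 with at least 100 UMIs in the pair, 3 without the top cell and 0 with free RNA subtracted. For Lin28+/cKit+ over Lin28-/cKit- endothelial-like cells the 7 calls became 2 with at least 100 UMIs and 1 with free RNA subtracted. Both of these settings leave fewer genes to compare. Leaving out top cells and shared barcodes were chosen after seeing the data. TMM factors shifted every log2 ratio of macrophage-like cells by 0.10 and of all cells of the Lin28+ libraries by 0.11; with them Ccl9 in macrophage-like cells stood at 0.06, against -0.04. Of 110 alternative log2 ratios in macrophage-like cells, 96 moved by less than the counting interval. These include all 11 of Ccl11, whose wide interval rested on 1 and 2 UMIs. No paired analysis was possible because each group is 1 library and the results come from no test. Apart from Ccl11, the fewest UMIs in these classes lie behind Ccl8, with 16 and 8 in inflammatory cells and 3 and 2 in endothelial-like cells of Lin28+/cKit+ and Lin28+/cKit-.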

Other observations

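Of the 11 other CC chemokine genes considered, 7 were listed in the tables, and 2 of them had a level set by a small group of cells. Ccl21a, a ligand of Ccr7 made by lymphatic vessels, stood at 21600 (20722 to 22507) CPM in the 13 lymphatic endothelial-like cells of Lin28+/cKit+, at 14252 in the 14 of Lin28+/cKit- and at 17707 in the 17 of Lin28-/cKit-, against 4.50, 4.05 and 6.15 in endothelial-like cells of the same libraries. Ccl5, a chemokine made by lymphocytes, stood at 1019 CPM in the 60 cells of Lin28-/cKit- in the unnamed cluster led by S100a9, S100a8 and Nkg7, and at 25.3 in inflammatory macrophage-like cells of Lin28+/cKit+. In macrophage-like cells it was the 1 of 4 measured genes of that list past 2-fold between Lin28+/cKit+ and Lin28+/cKit-, at 2.07 (1.40 to 3.15), where 1.1% of all genes were higher and 1.59% lower. That cluster also held 287 CPM of Ccl3 and 426 of Ccl4, with 47 of 128 and 67 of 190 UMIs in a single cell each.
An unnamed cluster of shallow cells (46 in Lin28+/cKit+ and 59 in Lin28+/cKit-, at medians of 768.5 and 845 UMIs), with all 10 macrophage markers raised, held Ccl4 at 3702 and 3143 CPM, Ccl2 at 1191 and 1290 and Ccl3 at 1126 and 1017.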
